A study of Mus musculus with 30 samples.

Results

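The 9 genes described here encode enzymes of the mitochondrial tricarboxylic acid cycle and the catalytic subunit of pyruvate dehydrogenase, and were taken by symbol (*Cs*, *Idh3a*, *Idh3b*, *Ogdh*, *Suclg1*, *Suclg2*, *Fh1*, *Mdh2* and *Pdha1*) from the 14173 genes of the count tables. All 9 symbols were found, each in 1 row. Liver mRNA of 30 male C57BL6/J mice was measured by QuantSeq, which sequences 1 fragment at the 3′ end of each transcript, with 6 livers per diet and 1 library per liver. The mice were divided over their diets at 12 weeks of age, ate them for 12 weeks from then and were killed after a 4 h fast, at an age labelled as 6 months. No group carried a mutation or received a drug.

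The groups were Cas-20% (20% casein, 0.57 g methionine and 0.41 g cysteine per 100 g), Cas-5% (5% casein, 0.15 and 0.1), Soy-20% (20% soy protein, 0.22 and 0.22), Soy-20% + SAA (the same soy diet with methionine and cysteine added, 0.58 and 0.41) and Soy-10% (11.5% soy protein by the labels, 0.13 and 0.13). Protein and sulfur amino acids fell together in Cas-5% and Soy-10%, so their parts in those diets cannot be told apart. The additions brought Soy-20% + SAA to about the sulfur amino acid level of Cas-20%, and Soy-20% was the diet without them. By the authors' account, the mice had earlier been acclimated to Cas-20% or Soy-20%. The Cas-20% and Soy-20% groups thus stayed on their diet at 12 weeks of age, while the other groups were switched.

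Pyruvate dehydrogenase turns pyruvate into acetyl-CoA, and citrate synthase joins that acetyl-CoA to oxaloacetate. The cycle then oxidizes citrate step by step back to oxaloacetate, passing electrons to the respiratory chain. In liver the cycle also supplies citrate for fatty acid synthesis and malate and oxaloacetate for glucose synthesis, and takes in the carbon skeletons of amino acids.

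Each liver gave between 7694015 and 14565542 counts, with a median of 10803734.5, and every member had at least 155 counts in every library. Together the 9 genes drew between 0.0905% and 0.114% of the counts of a liver. The defining hepatocyte genes were high in all 30 livers but not all even. On Cas-5% all livers had more *Alb* (502753 to 661222) and less *Cps1* (3149 to 5683) and *Tat* (848 to 2214) than any Cas-20% liver (430359 to 490920, 8139 to 13501 and 2841 to 8786). *Apoa1*, *Ttr* and *Serpina1c* overlapped between these 2 diets. Libraries 3 to 6 of Soy-20% + SAA stood apart: their counts rose with the GC content of the 3′ end of transcripts, by 0.047 to 0.165 log2 units per 10% GC, against -0.022 and -0.021 in libraries 1 and 2 and -0.052 to 0.026 in the other diets. Members named as passing in a comparison with this diet are therefore given without those 4 libraries too. Pancreatic acinar genes, at a summed level of at most 3 in the other 29 livers (4 of 5 genes in the table), reached 5087 normalized counts in liver 4 of Soy-10%, and results with Soy-10% are given without that liver where it changed a call. Livers of 1 diet are the replicates, and in whole liver fewer cells of a type and less RNA per cell cannot be told apart.

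The promoters of the 3 genes that were lower under casein restriction are printed below, 250 bases before to 50 bases after the transcription start of RefSeq on GRCm38.p6, with the bases from the start site on in capitals. *Fh1* lies at chr1:175600374-175625635 on the minus strand (promoter chr1:175625586-175625885), *Cs* at chr10:128337734-128362479 on the plus strand (promoter chr10:128337477-128337776) and *Mdh2* at chr5:135778480-135790398 on the plus strand (promoter chr5:135778399-135778698).
Fh1: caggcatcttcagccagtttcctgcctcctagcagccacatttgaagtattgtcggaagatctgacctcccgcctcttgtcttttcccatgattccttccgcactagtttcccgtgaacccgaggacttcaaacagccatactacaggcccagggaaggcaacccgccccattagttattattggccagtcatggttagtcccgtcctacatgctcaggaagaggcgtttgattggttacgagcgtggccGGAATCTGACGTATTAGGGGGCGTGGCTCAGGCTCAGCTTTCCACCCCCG
Cs: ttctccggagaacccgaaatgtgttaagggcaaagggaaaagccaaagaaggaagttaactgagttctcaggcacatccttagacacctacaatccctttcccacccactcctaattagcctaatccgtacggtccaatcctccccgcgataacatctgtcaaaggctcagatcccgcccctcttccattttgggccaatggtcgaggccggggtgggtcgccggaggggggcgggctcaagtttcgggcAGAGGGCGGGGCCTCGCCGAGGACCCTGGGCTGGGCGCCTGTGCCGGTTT
Mdh2: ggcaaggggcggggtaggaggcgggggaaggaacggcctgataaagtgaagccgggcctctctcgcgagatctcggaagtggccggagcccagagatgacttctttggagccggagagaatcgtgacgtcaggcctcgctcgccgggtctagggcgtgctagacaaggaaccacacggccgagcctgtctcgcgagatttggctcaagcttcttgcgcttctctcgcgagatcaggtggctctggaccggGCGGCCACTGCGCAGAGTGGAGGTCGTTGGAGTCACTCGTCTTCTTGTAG
Promoter entries existed for 8 of the 9 genes, 13 promoters in all. On both strands, none of the 13 held TCAAGGTCA or TNAAGGTCA, letters bound by ESRRA (in 0.423% and 1.28% of 32851 mouse promoters), the palindromic site of NRF1 in its full form or with its 2 central bases free (0.971% and 6.23%), CCGGAAGT, bound by GABPA (3.89%), or TGATGNAA, the amino acid response element (3.97%). The relaxed ESRRA and NRF1 letters include every match of the stricter ones. Absence from these windows says only that the letters are not there.

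*Pdha1*, on chromosome X, encodes the catalytic E1 alpha subunit of pyruvate dehydrogenase, the part that regulatory kinases phosphorylate. Its normalized count (reads divided by the authors' size factor of each library) ran from 734 to 985 with a median of 903 on Cas-20% and from 763 to 966 with a median of 895 on Cas-5%. On Soy-20% it ran from 879 to 1147 (median 971), on Soy-20% + SAA from 899 to 1146 (median 923) and on Soy-10% from 800.0 to 988 (median 909.9). The 5 diets overlapped. In edgeR's quasi-likelihood test with Benjamini-Hochberg adjustment over all genes tested, Cas-5% differed from Cas-20% by a log2 fold change of -0.00 (SE 0.08, 95% interval -0.17 to 0.17, adjusted p = 0.99).

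*Cs* encodes citrate synthase, which commits acetyl-CoA to the cycle. On Cas-20% its normalized counts ran from 943 to 1435 with a median of 1017. On Cas-5% they ran from 748 to 923 with a median of 852, so that all 6 restricted livers lay below all 6 controls. The log2 fold change was -0.40 (SE 0.10, adjusted p = 0.0088 by edgeR), or 24% lower. In soy, levels ran from 833 to 1300 (median 1031) on Soy-20% and from 814 to 992 (median 853) on Soy-10%, and these groups overlapped. Soy-10% differed from Soy-20% by -0.26 (SE 0.09), with an adjusted p of 0.2 by edgeR. In Soy-20% + SAA the livers spread from 529 to 1020, with a median of 891.

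The isocitrate dehydrogenase that uses NAD is built from alpha, beta and gamma subunits, and *Idh3a* (catalytic alpha) and *Idh3b* (beta) are members. Counts of *Idh3a* ran from 225 to 311 (median 272) on Cas-20% and from 233 to 305 (median 246) on Cas-5%. They ran from 273 to 346 (median 302) on Soy-20%, from 149 to 249 (median 197) on Soy-20% + SAA and from 248 to 313 (median 279.8) on Soy-10%. The Soy-20% + SAA livers lay below all 6 Soy-20% livers, and the low end of that group was in libraries 3 to 6 (149 to 233, against 209 and 249 in libraries 1 and 2). *Idh3b* ran from 1039 to 1520 (median 1275) on Cas-20%, from 1046 to 1333 (median 1193) on Cas-5% and from 1338 to 1509 (median 1402) on Soy-20%. On Soy-20% + SAA it ran from 1173 to 1625 (median 1439) and on Soy-10% from 1227 to 1567 (median 1376). Casein restriction gave -0.11 for *Idh3a* (SE 0.09, adjusted p = 0.42 by edgeR) and -0.08 for *Idh3b* (SE 0.09, adjusted p = 0.55). The 3′ end of *Idh3b* meets that of *Nop56* on the other strand.

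*Ogdh* encodes the E1 subunit of the oxoglutarate dehydrogenase complex, which makes succinyl-CoA. It ran from 930 to 1152 (median 1007) on Cas-20%, from 914 to 1038 (median 956) on Cas-5% and from 859 to 973 (median 895) on Soy-10%. The Soy-20% livers were even, from 865 to 931 (median 912), with a coefficient of variation of 2.4%. On Soy-20% + SAA, libraries 1 and 2 had 901 and 892 and libraries 3 to 6 ran from 1035 to 1117. Casein restriction gave -0.08 (SE 0.07, adjusted p = 0.42 by edgeR), and *Ogdh* was the 1 member with a higher value on Cas-5% than on Soy-10%, by 0.11 (SE 0.06, adjusted p = 0.21).

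Succinyl-CoA is cleaved by succinate-CoA ligase, in which the alpha subunit *Suclg1* pairs with the GTP-specific beta subunit *Suclg2* or the ATP-specific *Sucla2*. *Suclg1* ran from 2504 to 3100 (median 2734) on Cas-20% and from 2107 to 2724 (median 2397) on Cas-5%. In soy it ran from 2686 to 3107 (median 2906) on Soy-20% and from 2513 to 3112 (median 2938) on Soy-10%. The Soy-20% + SAA livers reached from 2629 to 3861 (median 3148). *Suclg2* ran from 788 to 1116 (median 844) on Cas-20%, from 621 to 938 (median 777) on Cas-5%, from 816 to 1143 (median 915) on Soy-20% and from 893 to 1106 (median 1059) on Soy-10%. The 4 groups overlapped for both genes, though 5 of the 6 Cas-5% livers had less *Suclg1* than any Soy-10% liver. Against Cas-20%, *Suclg1* differed by -0.18 (SE 0.07, adjusted p = 0.084 by edgeR) and *Suclg2* by -0.20 (SE 0.11, adjusted p = 0.2).

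*Fh1* encodes fumarase, which hydrates fumarate to malate in mitochondria and cytosol, and showed the largest change of the members under casein restriction. Its normalized counts were 1992, 1838, 1625, 1550, 1516 and 1869 in Cas-20% livers 1 to 6 and 1160, 973, 1077, 1082, 1222 and 1374 in Cas-5% livers 1 to 6. The groups did not overlap. The log2 fold change was -0.58 (SE 0.09, adjusted p = 0.00017 by edgeR), or 33% lower with a 95% interval from 23.5% to 41.3% lower. On Soy-20% the livers ran from 1280 to 1780 with a median of 1609, and on Soy-10% from 1196 to 1487 with a median of 1373. That difference was -0.23 (SE 0.08), with an adjusted p of 0.2 by edgeR. *Fh1* shares its 5′ end with *Kmo* on the other strand, away from the 3′ end that QuantSeq reads.

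*Mdh2* encodes mitochondrial malate dehydrogenase, which closes the cycle by remaking oxaloacetate. It ran from 1580 to 2009 (median 1784) on Cas-20% and from 1321 to 1664 (median 1541) on Cas-5%, and 3 of the 6 restricted livers overlapped the controls. On soy it ran from 1704 to 1939 (median 1738) on Soy-20%, from 1676 to 2035 (median 1789) on Soy-10% and from 1708 to 2403 (median 1983) on Soy-20% + SAA. All 6 Cas-5% livers lay below all 6 Soy-10% livers. Casein restriction gave -0.23 (SE 0.08, adjusted p = 0.04 by edgeR).

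**Figure D1:**
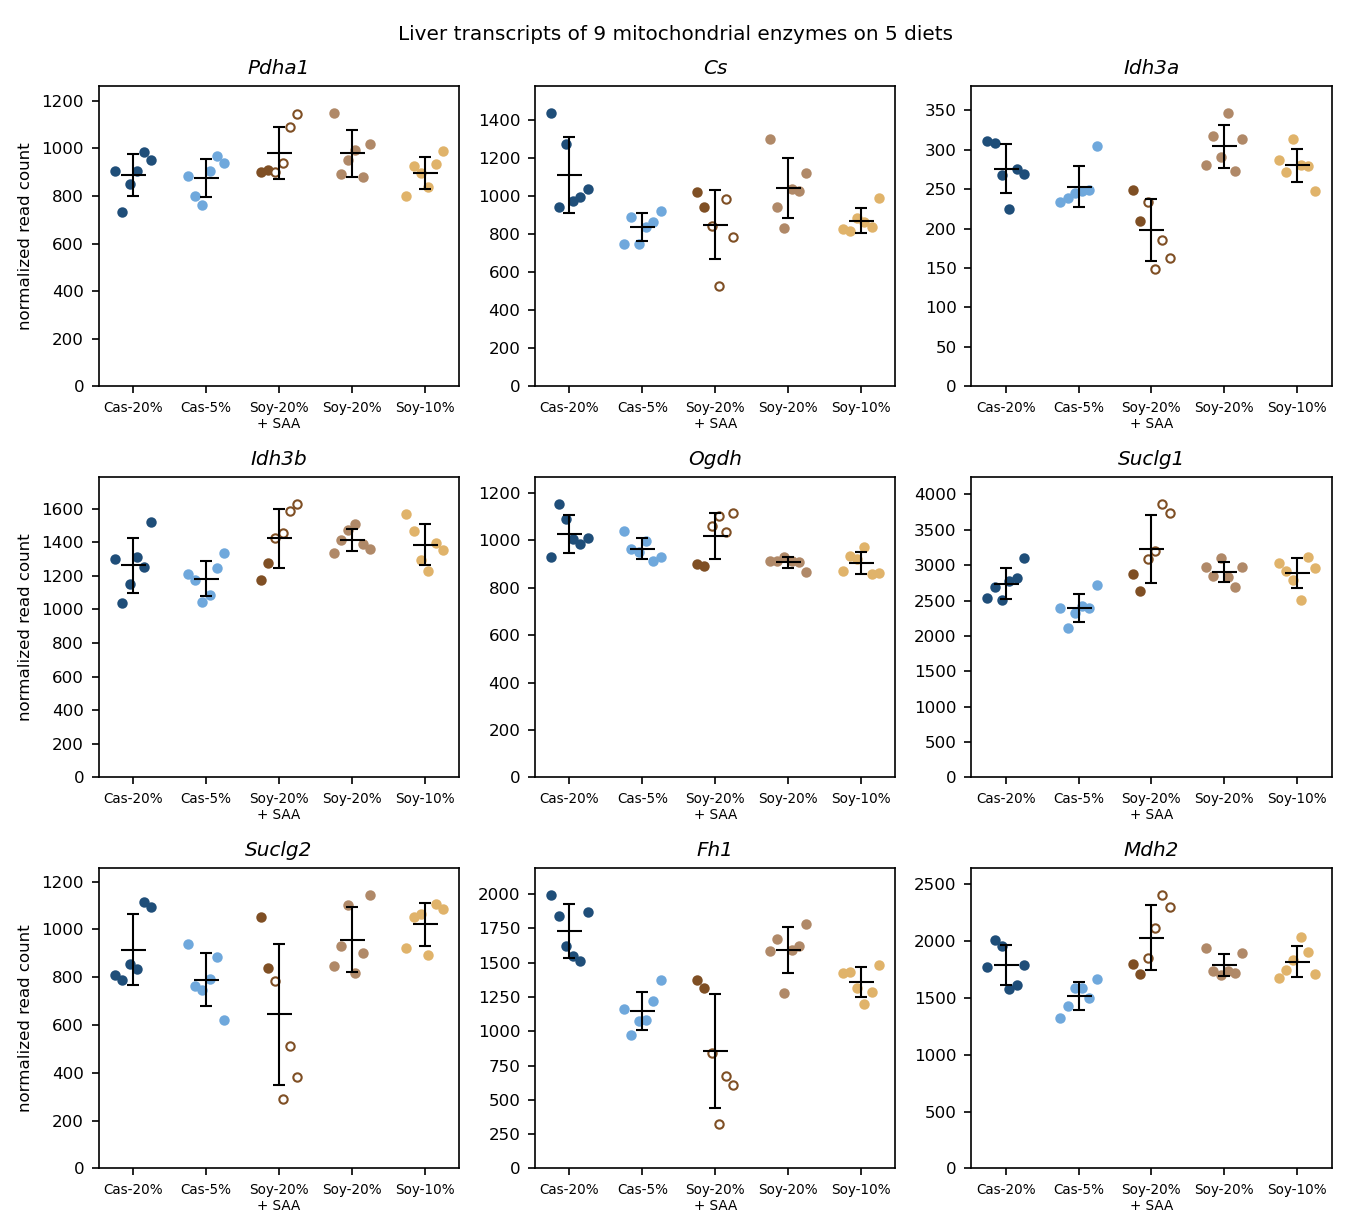
Normalized read counts (vertical axes, from 0) of the 9 genes in each of 30 livers, by diet (horizontal axes). Points are livers, open points are Soy-20% + SAA libraries 3 to 6, and bars show the mean and SD of 6 livers. *Fh1* and *Cs* in Cas-5% lie below all Cas-20% livers, and *Fh1*, *Suclg2* and *Idh3a* reach their lowest values in the open points.

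Casein restriction lowered 3 of the 9 genes at an adjusted p of 0.05 or less by edgeR, *Fh1*, *Cs* and *Mdh2*, and raised none. Of 12076 genes tested, 24.9% passed the same threshold, 13.3% as lower. For *Fh1* and *Cs* the groups did not overlap, with Cas-5% lower, as for 7.73% of all genes tested. The 9 estimates were all negative, with a median of -0.18 against 0.02 over all genes. *Fh1* and *Cs* passed in each of the 12 fits that left out 1 liver. *Mdh2* did not pass in 8 of them, with adjusted p between 0.052 and 0.086 by edgeR, and differed by -0.13 (adjusted p = 0.21) with the GC slope as a covariate, where *Suclg2* passed at -0.34 (adjusted p = 0.023). Without Cas-5% liver 6, *Suclg1* passed as well (-0.22, adjusted p = 0.035). Skeletal muscle markers (4 of 4 in the table) summed to between 0 and 3 normalized counts in Cas-20% livers. In Cas-5% livers the sum was between 24 and 59. On soy it was between 23 and 51 (Soy-20%), 11 and 35 (Soy-20% + SAA), and 1 and 22 (Soy-10%). Cholangiocyte markers (4 of 4) summed to between 216 and 452 on Cas-20% and between 169 and 339 on Cas-5%. Of these, *Sox9* alone gave between 194 and 436 and between 132 and 323. The part of either marker set in the result was not tested.

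None of the members passed when Soy-10% was compared with Soy-20%, where 0.866% of 11897 genes did. Estimates ran from -0.26 (*Cs*) to 0.09 (*Suclg2*), and 2 members, *Cs* and *Fh1*, had an unadjusted p under 0.05, as did 1460 of all genes. DESeq2 also called no member. Both restricted diets thus had their most negative estimates in *Fh1* and *Cs*, with those of soy at an adjusted p of 0.2. The 95% interval of the log2 difference was -0.39 to -0.07 for *Fh1* and -0.45 to -0.08 for *Cs* in soy, and -0.77 to -0.39 and -0.61 to -0.18 in casein. Without Soy-20% liver 3, *Fh1* passed (-0.28, adjusted p = 0.044 by edgeR), in a fit where 146 of 11994 genes did.

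The casein effect minus the soy effect, tested as a difference in 1 fit with Soy-20% as the soy control, passed for no member, against 5.99% of 12450 genes. The restrictions were not equally deep. By the diet contents given above, protein and methionine both fell further in casein, and this soy control was already low in methionine. Protein source and depth of restriction therefore cannot be told apart in this difference, here or below. The largest differences were *Fh1* (-0.35, SE 0.12, adjusted p = 0.08 by edgeR), *Suclg2* (-0.30, SE 0.15, adjusted p = 0.26) and *Mdh2* (-0.25, SE 0.10, adjusted p = 0.12). *Fh1* passed without Cas-5% liver 6 (-0.41, adjusted p = 0.035), in a fit where 662 of 12511 genes did.

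The restricted diets, nearly matched in methionine but with less protein in Cas-5% than in Soy-10%, were also compared with each other. Protein source and protein level cannot be told apart in this comparison, here or below. *Suclg2* (-0.35, SE 0.09, adjusted p = 0.015 by edgeR), *Suclg1* (-0.25, SE 0.07, adjusted p = 0.023) and *Mdh2* (-0.24, SE 0.07, adjusted p = 0.026) were lower on Cas-5% than on Soy-10%, between 15.6% and 21.6% lower. That was 3 of 9 genes where 10.7% of 12041 genes passed, 6.14% as lower. Only *Mdh2* had groups that did not overlap, as did 4.09% of all genes in that direction. *Fh1* (-0.22, adjusted p = 0.079) and *Idh3b* (-0.21, adjusted p = 0.074) did not pass, and *Cs* differed by -0.04 (95% interval -0.18 to 0.10). The median of the members was -0.21, against 0.01 over all genes. Without Soy-10% liver 4, which held acinar transcripts, *Suclg2* (-0.39, adjusted p = 0.011), *Suclg1* (-0.29, adjusted p = 0.0094), *Fh1* (-0.26, adjusted p = 0.047) and *Idh3b* (-0.24, adjusted p = 0.042) passed and *Mdh2* did not (-0.21, adjusted p = 0.052). *Suclg1* was lost without Cas-5% liver 2 (adjusted p = 0.053 by edgeR) or Soy-10% liver 5 (0.056), and *Mdh2* without any of 5 livers (highest adjusted p 0.058). With 1 liver left out, from 1 member (without Cas-5% liver 2 or Soy-10% liver 5) to 5 members (without Cas-5% liver 6) passed. These comparisons share the Cas-5% livers with casein restriction.

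**Figure D2:**
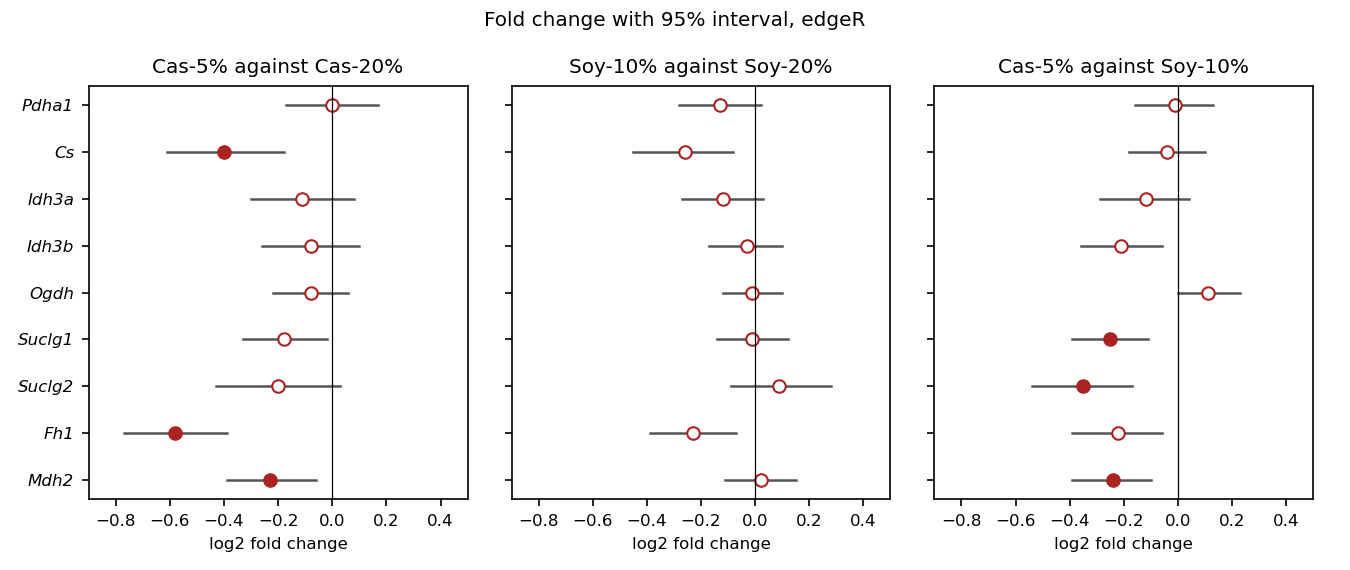
Log2 fold change (horizontal axes) of the 9 genes (vertical axis) in 3 comparisons of 6 livers with 6, with 95% intervals from edgeR. Filled points had an adjusted p of 0.05 or less. *Fh1*, *Cs* and *Mdh2* are filled in the first panel, none in the second, and *Suclg2*, *Suclg1* and *Mdh2* in the third.

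Estimates in comparisons with Soy-20% + SAA moved when libraries 3 to 6 of that diet were left out. Such fits keep only libraries 1 and 2 of the diet, so a call lost in them can also reflect fewer livers. Soy-10% against Soy-20% + SAA gave 1 member, *Idh3a*, as higher (0.50, SE 0.12, adjusted p = 0.013 by edgeR), where 17.0% of 11983 genes passed, 8.51% as higher. *Suclg2* (0.67, SE 0.24, adjusted p = 0.069) and *Fh1* (0.66, SE 0.26, adjusted p = 0.084) had larger estimates and larger errors. Without library 1 or 2 they passed (highest adjusted p 0.044 by edgeR), as did *Ogdh* as lower (-0.21 and -0.20, highest adjusted p 0.047), in fits where 3119 of 12079 and 2819 of 12092 genes did. Without libraries 3 to 6 no member passed, and the estimates were 0.28 for *Idh3a* (adjusted p = 0.23), 0.10 for *Suclg2*, 0.00 for *Fh1* and 0.00 for *Ogdh*. The sign of *Cs* turned from 0.03 to -0.18 (adjusted p = 0.34), and neither value passed.

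Addition of sulfur amino acids to the soy diet (Soy-20% + SAA against Soy-20%) passed for no member and for 0.00838% of 11932 genes, which is 1 gene. The estimates were -0.63 for *Idh3a* (SE 0.12, adjusted p = 0.055 by edgeR), whose groups did not overlap, as for 1.19% of all genes in that direction, and -0.90 for *Fh1* (SE 0.26, adjusted p = 0.085). Of the members 4 had an unadjusted p under 0.05, as did 2892 of all genes, and DESeq2 called 2, *Idh3a* and *Fh1*. *Idh3a* (-0.71, adjusted p = 0.0061), *Fh1* (-1.09, adjusted p = 0.017) and *Suclg2* (-0.78, adjusted p = 0.039) passed by edgeR without library 1, and *Idh3a* (-0.64, adjusted p = 0.027) and *Fh1* (-1.06, adjusted p = 0.032) without library 2. In those fits 1587 of 11974 and 1118 of 12062 genes passed, against at most 3 when any 1 of libraries 3 to 6 was left out. Without libraries 3 to 6 together the estimates were -0.40 (adjusted p = 0.61) for *Idh3a*, -0.24 (adjusted p = 0.73) for *Fh1* and -0.01 for *Suclg2*.

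Cas-20% against Soy-20% + SAA, which are matched in sulfur amino acids, passed for no member and for 2.43% of 11988 genes. *Fh1* was 1.02 higher (SE 0.26, adjusted p = 0.055 by edgeR) and 0.36 higher (adjusted p = 0.58) without libraries 3 to 6. At an unadjusted p under 0.05 there were 4 members, among 3143 of all genes, and DESeq2 called 2, *Fh1* and *Idh3a*, which edgeR also called without library 1 (adjusted p = 0.012 and 0.014) or without library 2 (adjusted p = 0.025 and 0.039). In those fits 1817 of 12073 and 1247 of 12072 genes passed, against 9 to 79 when any 1 of libraries 3 to 6 was left out. *Idh3a* was 0.48 higher (SE 0.13, adjusted p = 0.056 by edgeR) with all libraries and 0.26 higher (adjusted p = 0.72) without libraries 3 to 6. Cas-20% against Soy-20% likewise passed for no member and for 2.69% of 11875 genes, with *Ogdh* at 0.18 (SE 0.06, adjusted p = 0.12), the 1 member with an unadjusted p under 0.05, as 2174 of all genes had. DESeq2 called none there.

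With Soy-20% + SAA as the soy control, the casein effect was more negative than the soy effect for *Fh1* (-1.25, SE 0.29, adjusted p = 0.01 by edgeR) and *Idh3a* (-0.61, SE 0.15, adjusted p = 0.014), where 8.69% of 12532 genes passed, 5.49% as lower. Sulfur amino acids fell about alike in these restrictions, but protein fell further in casein. Without libraries 3 to 6, an alternative chosen after seeing the data, *Fh1* was at -0.59 (adjusted p = 0.029) and *Idh3a* at -0.39 (adjusted p = 0.17). Without library 1 alone, *Suclg2* (-1.07, adjusted p = 0.0062) and *Cs* (-0.49, adjusted p = 0.048) passed too, in a fit where 1941 of 12611 genes did. *Suclg2*, at -0.87 (adjusted p = 0.054) with all livers, also passed without library 2 (-0.96, adjusted p = 0.028), library 3 (-0.93, adjusted p = 0.049) or Cas-5% liver 1 (-0.93, adjusted p = 0.047). Without libraries 3 to 6, *Suclg2* was at -0.31 (adjusted p = 0.42) and *Cs* at -0.22 (adjusted p = 0.53).

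In libraries 3 to 6 of Soy-20% + SAA the members moved apart from each other. Relative to libraries 1 and 2, *Fh1* was at a ratio of 0.43, *Suclg2* at 0.489, *Cs* at 0.782 and *Idh3a* at 0.788, while *Suclg1* was at 1.26, *Idh3b* at 1.24, *Mdh2* at 1.23, *Ogdh* at 1.2 and *Pdha1* at 1.12. The last 200 bases of the *Fh1* transcript are 33.0% GC, and all genes between 30% and 35% had a median log2 difference of -0.10. *Suclg2*, *Ogdh* and *Idh3b* all have 42.5% GC there but differed by -1.03, 0.26 and 0.31 in log2, while genes between 40% and 45% had a median of 0.05 and quartiles of -0.20 and 0.23. Counts of *Fh1* were 1376 and 1318 in libraries 1 and 2 and 844, 325, 673 and 605 in libraries 3 to 6, and those of *Suclg2* were 1052 and 840, and 785, 290, 512 and 382. These 4 libraries were set apart by their GC slope, not by these genes, and no test was made between them.

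**Figure D3:**
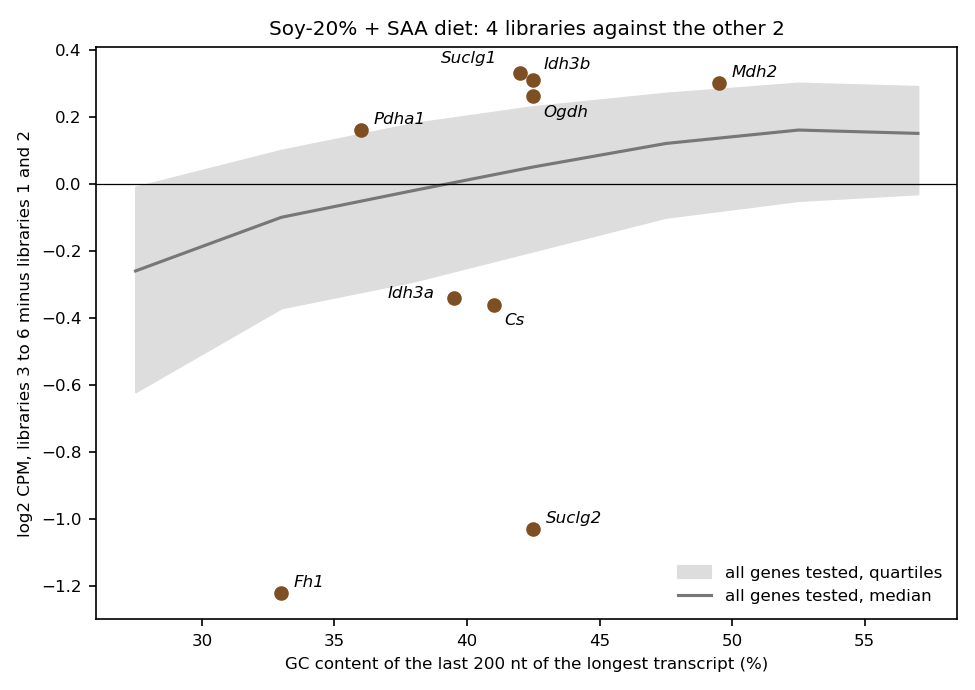
Log2 CPM difference between Soy-20% + SAA libraries 3 to 6 and libraries 1 and 2 (vertical axis) against the GC content of the last 200 bases of the longest transcript (horizontal axis, %) for the 9 genes, with the median and quartiles of all genes in bins of GC content. *Fh1* and *Suclg2* lie at -1.22 and -1.03, below the lower quartile of genes of like GC content.

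Over the 5 diets together, 8 of the 9 genes differed at an adjusted p of 0.05 or less in edgeR's test of any difference, where 43.4% of 12561 genes did. The exception was *Pdha1* (adjusted p = 0.21). The smallest adjusted p-values were those of *Idh3a* (0.00021), *Fh1* (0.00071), *Suclg1* (0.0014) and *Mdh2* (0.0026). Without Soy-20% + SAA libraries 3 to 6, 6 members passed, and *Idh3b* (adjusted p = 0.058 by edgeR) and *Suclg2* (0.1) did not. By group median, without those 4 libraries, the diets followed no common order: *Fh1* and *Cs* were highest on Cas-20% or Soy-20% and lower on both restricted diets, *Suclg1*, *Suclg2*, *Mdh2* and *Idh3b* had Cas-5% as the lowest diet, *Ogdh* had a lower median on Soy-20% and Soy-10% than on either casein diet, and *Idh3a* had its lowest on Soy-20% + SAA. Neighbours in these orders were tested only for the pairs of diets compared above.

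The other subunits of the same enzymes and further enzymes of the cycle gave 6 of 12 genes as lower and none as higher under casein restriction, with a median of -0.31, where 13.3% of all genes were lower. *Sdhb*, the iron-sulfur subunit of succinate dehydrogenase, ran from 3244 to 3925 (median 3588) on Cas-20% and from 1931 to 2559 (median 2153) on Cas-5% and fell by 0.69 in log2 (SE 0.08, adjusted p = 1.2e-05 by edgeR). *Sdha*, its flavoprotein subunit, differed by -0.35 (adjusted p = 0.0002) and *Dlst*, the E2 subunit that works with *Ogdh*, by -0.45 (adjusted p = 0.00023). The others called were *Dlat*, *Sucla2* and *Sdhc*, from -0.55 to -0.28. In soy, against Soy-20%, 0 of the 12 passed by edgeR, where 0.866% of all genes did, with *Sdhb* at -0.19 (adjusted p = 0.1), *Dlst* at -0.15 (adjusted p = 0.34) and *Pdhx*, which holds E3 to the pyruvate dehydrogenase core, at 0.14 (adjusted p = 0.38). Against Soy-20% + SAA with all its libraries, 2 of the 12 passed as lower and none as higher, where 17.0% of all genes passed. That count is not given without libraries 3 to 6. *Sdhd*, another subunit of succinate dehydrogenase, shifted most of the 12 there, with 23 to 167 normalized counts against 1268 and 802 in libraries 1 and 2. Between Cas-5% and Soy-10%, 7 of 12 were lower on Cas-5% (6.14% of all genes), and the casein effect was more negative than the soy effect (Soy-20% control) for 5 of 12 (3.57% of all genes), *Sdhb* (-0.50, adjusted p = 0.0016), *Sdha*, *Sucla2*, *Sdhc* and *Dlst*. With 1 liver left out, from 6 to 7 of the 12 passed under casein restriction, from 6 to 8 between the restricted diets (7 without Soy-10% liver 4) and from 3 to 5 for the difference of effects.

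Some enzymes had both subunits that passed under casein restriction and subunits that did not. In pyruvate dehydrogenase, *Dlat* (E2) was lower by 0.55 in log2 (that is, -0.55, adjusted p = 0.0029 by edgeR), while *Pdha1* and *Pdhb* (E1) were at -0.00 and 0.12 and *Pdhx* at 0.05, none of which passed. Of the oxoglutarate dehydrogenase complex, *Dlst* passed and *Ogdh* did not. Of succinate-CoA ligase, *Sucla2* passed (-0.39, adjusted p = 0.00029), and *Suclg1* and *Suclg2* did not. The subunits *Idh3a*, *Idh3b* and *Idh3g* (-0.00) of isocitrate dehydrogenase all missed the threshold. The differences between subunits were not themselves tested.

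**Figure D4:**
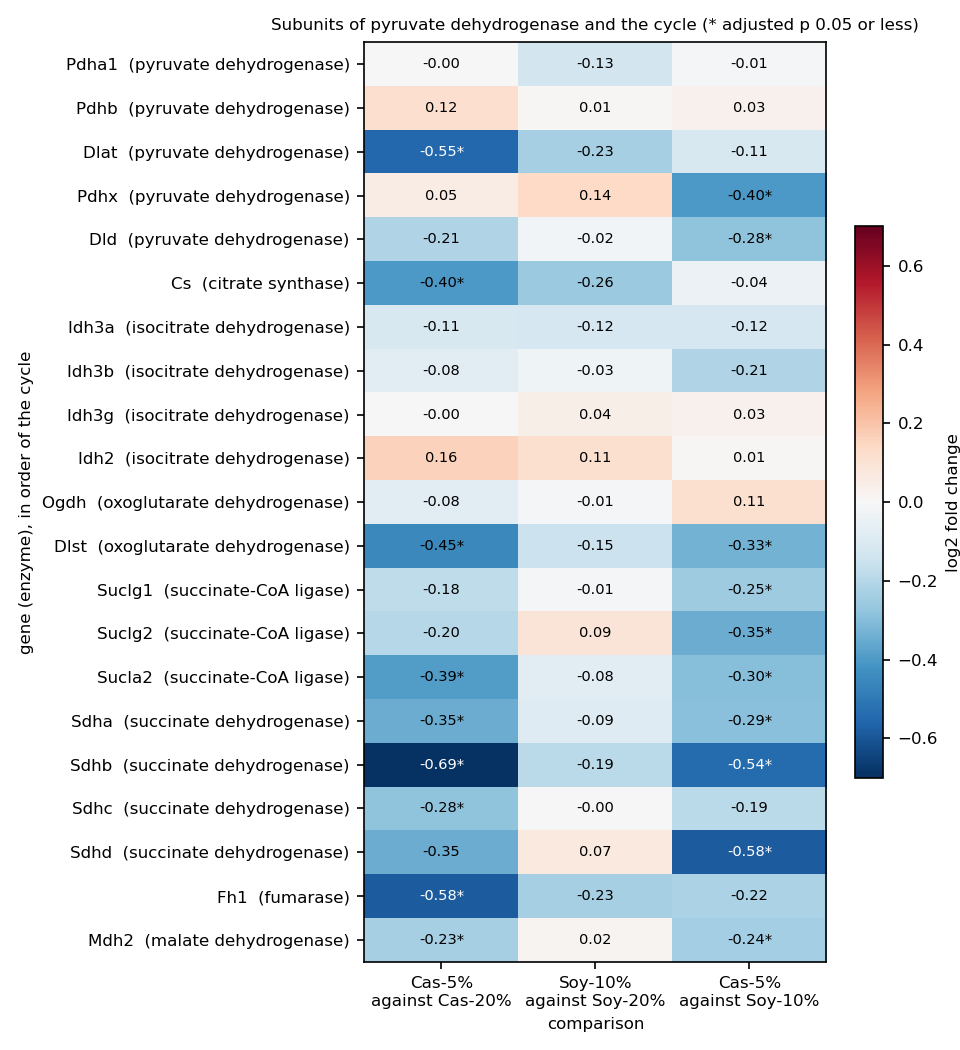
Log2 fold changes (colour and printed values) of the 9 genes and the 12 other subunits and cycle enzymes (vertical axis, in the order of the cycle) in 3 comparisons (horizontal axis), with a star where the adjusted p was 0.05 or less. In the first column 9 of the 21 genes carry a star, all negative, and in the second none does.

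Of the kinases and phosphatases that switch pyruvate dehydrogenase off and on, 5 of 7 were tested in casein restriction, where 24.9% of all genes passed. *Pdk2*, a kinase, fell (-0.61, SE 0.09, adjusted p = 9.5e-05 by edgeR) and *Pdk4*, a kinase induced by fasting, rose (0.88, SE 0.23, adjusted p = 0.01), from a median of 30.2 to 49.8 normalized counts, though not with the GC slope as a covariate (0.72, adjusted p = 0.06) or in 1 fit of 30 livers (adjusted p = 0.14), while *Pdk1* was at -0.25 (adjusted p = 0.097). In soy, against Soy-20%, 0 of 5 passed, where 0.866% of all genes did, with *Pdp2* at -0.15, *Pdk2* at -0.13 and *Pdk1* at -0.10. Against Soy-20% + SAA with all its libraries, 1 of 6 tested passed, as lower, where 17.0% of all genes passed. Of 7 carriers of cycle metabolites, 5 fell and 1 rose under casein restriction, where 24.9% of all genes passed, 13.3% as lower. The pyruvate carrier subunits went opposite ways, with *Mpc1* at -0.65 (adjusted p = 0.00087) and *Mpc2* at 0.42 (adjusted p = 0.0015), and the citrate carrier *Slc25a1* fell (-0.45, adjusted p = 0.00023). In soy, 0 of 7 carriers passed against Soy-20%, with *Mpc1* at -0.27, *Slc25a1* at -0.12 and *Mpc2* at 0.08, and 1 of 7 passed against Soy-20% + SAA, as lower.

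Among 11 genes for entry into the cycle and for cytosolic partner enzymes, 6 fell and 1 rose under casein restriction, where 24.9% of all genes passed, 13.3% as lower. *Got1*, cytosolic aspartate aminotransferase, ran from 2166 to 4998 (median 3291) on Cas-20% and from 645 to 930 (median 839.6) on Cas-5% and changed by -2.02 (SE 0.16, adjusted p = 2e-07 by edgeR). *Mdh1*, the cytosolic malate dehydrogenase, changed by -0.68 (SE 0.07, adjusted p = 3.1e-06), a larger estimate than the -0.23 of its mitochondrial counterpart *Mdh2*. *Pck2*, mitochondrial phosphoenolpyruvate carboxykinase, rose by 1.45 (SE 0.17, adjusted p = 1e-05). In soy, against Soy-20%, 0 of 11 passed, where 0.866% of all genes did, with *Mdh1* at -0.16, *Got2* at -0.18 and *Acly* at -0.88 (SE 0.31, adjusted p = 0.23). Against Soy-20% + SAA with all its libraries, 4 of 11 passed, 1 as higher and 3 as lower, where 17.0% of all genes passed. Between the restricted diets, where 10.7% of all genes passed, 6.14% as lower, 3 of the 11 were lower on Cas-5%. These were *Mdh1* (-0.43, adjusted p = 0.00031 by edgeR), *Idh1* (-0.39, adjusted p = 0.0012) and *Got1* (-0.47, adjusted p = 0.019, but 0.11 in 1 fit of 30 livers), while *Pck2* was higher (means of 69.9 and 35.8 normalized counts, adjusted p = 0.00034).

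The list of mitochondrial content and import genes gave 2 of 11 as lower under casein restriction, near the 13.3% of all genes, *Vdac1* (-0.42, adjusted p = 6.4e-05 by edgeR) and *Tomm40* (-0.30, adjusted p = 0.0084), with a median of 0.04 and *Hspa9* at 0.12 (adjusted p = 0.17). The amount of mitochondria was not measured. In soy, which here is Soy-10% against Soy-20%, 0 of 11 passed, where 0.866% of all genes did, with *Hspa9* at 0.09, *Vdac1* at -0.09 and *Hspd1* at 0.10. Of the 4 genes in the list for lipoic acid attachment, none passed under casein restriction by edgeR (*Lipt1* at -0.33, *Mcat* at -0.11 and *Lias* at -0.08) or in soy (*Lipt2* at -0.18, *Lipt1* at -0.09 and *Lias* at -0.02). Of 8 co-regulators and factors of mitochondrial genes, *Ppargc1b* (-0.48, adjusted p = 0.011 by edgeR) and *Ppargc1a* (-0.37, adjusted p = 0.014) were lower under casein restriction, *Nrf1* was at 0.32 (adjusted p = 0.069), and 0 of 8 passed in soy, with *Ppargc1b* at -0.27, *Ppargc1a* at -0.22 and *Ppara* at -0.08. Against Soy-20% + SAA with all its libraries, 0 of 11, 0 of 4 and 2 of 8 (1 higher, 1 lower) of these lists passed, where 17.0% of all genes did.

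Over the 26 livers without Soy-20% + SAA libraries 3 to 6, the genes outside these lists whose log2 CPM followed the members' mean most closely were *Ndufc1* and *Ndufs8* (complex I), *Uqcrb* (complex III), and *Atp5mpl* and *Atp5pb* (ATP synthase), with Pearson r between 0.90 and 0.93. Over all 30 livers the same genes had r between 0.13 and 0.76. Of the members, *Fh1* (r = 0.85) and *Suclg1* (r = 0.78) followed that mean most closely and *Ogdh* (r = -0.21) least. Each member is itself part of that mean, which raises its r. With the diet means removed, the 36 pairs of members had a median r of 0.06 over the 26 livers, ranging from -0.52 to 0.53, and 18 of them were positive. These values share libraries and depth and are given as a description.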

How the data were processed

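The authors made 3′ libraries with the Lexogen QuantSeq kit and mapped and counted reads with the Lexogen pipeline on the Bluebee platform. The build in the submitters' processing notes is GRCm38. The aligner, the annotation release and the strand setting of the counting are not given in the sources used here, so reads of overlapping genes on the other strand may not be separated. The first deposited table holds raw counts per gene. The second holds a normalized signal, the counts that the authors divided by DESeq2 size factors (DESeq2 1.30 and R 4.0.3 per the labels), which ran from 0.759 to 1.297, with no scaling for gene length.

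Livers were grouped by diet as labelled. edgeR 4.0.16 (R 4.3.3) was fitted to the raw counts of all genes kept by its filter on low counts, with TMM normalization, the quasi-likelihood test (two-sided) and Benjamini-Hochberg adjustment at 0.05, each comparison on its own livers. All 9 members passed the filter in each comparison. The test of any difference used all 30 livers. Levels printed are the deposited normalized counts. Intervals are 95% confidence intervals of the log2 fold change between the 2 diets compared, or of that change in percent. GC slopes were fitted on 12014 genes with the last 200 bases of the longest GENCODE M21 transcript. Likeness and correlations used log2 CPM with a prior count of 2.

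The members and lists were chosen with earlier results of these data known. All 9 members are named, with up to 3 genes per list of smallest adjusted p in casein restriction and up to 3 in soy restriction against Soy-20%. Other list genes are named where a count needed its members, chosen after their values were seen. The 5 genes with the highest correlation with the members' mean, outside the lists, are named too. The result of 1 list gene is not reported here. Alternatives were DESeq2 1.42.0, RLE factors, other filters, a replicate block, a GC slope covariate, 1 fit of 30 livers, and leaving out livers. Marker lists of other cells gave no adipocyte gene (0 of 3) in the table, and red blood cell, Kupffer, endothelial, stellate and proliferation markers overlapped between Cas-20% and Cas-5%.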

Additional observations from a re-analysis of the deposited data

Results flagged for a closer look

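*Idh3a* in Cas-5% was set by 1 liver at its upper end, where liver 6 had 305 normalized counts and the gap to the next liver was 0.79 of the group's range. *Ogdh* in Soy-20% had 865 normalized counts in liver 6, with a gap of 0.672 of the range below the other 5 livers. These were 2 of 45 groups of 6 livers examined, and chance alone gives about 2.2.

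The casein effect differed from the soy effect with Soy-20% + SAA as the soy control for *Idh3a* (-0.61, adjusted p = 0.014 by edgeR) and *Fh1* (-1.25, adjusted p = 0.01), by the test of the difference itself. Without libraries 3 to 6 of Soy-20% + SAA the values were -0.39 (adjusted p = 0.17) and -0.59 (adjusted p = 0.029).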

How the results depend on the processing

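Of 666 values of the 9 genes under settings other than leaving out a liver, 590 kept their direction and side of the threshold, 10 lost and 30 gained a call, and 36 changed sign without a call in either fit. Of 1188 values with 1 liver left out, these numbers were 1087, 15, 27 and 59. None reversed with a call. Calls by number of members were as follows. Soy-10% against Soy-20% + SAA gave 1, but 3 by DESeq2, 3 with the replicate block, 4 in 1 fit of 30 livers, and 0 with the GC slope or without libraries 3 to 6. Sulfur amino acid addition gave 0, but 2 by DESeq2 and 3 in the fit of 30 livers. Cas-20% against Soy-20% + SAA gave 0, but 2 by DESeq2, 2 with the block and 4 in the fit of 30. Cas-5% against Soy-10% gave 3, but 5 with the block. The difference of effects with Soy-20% + SAA gave 2, but 1 with the GC slope and 1 without libraries 3 to 6, and with Soy-20% it gave 0, but 1 with the block. Other settings gave a count within 1.5 times. The cause was not tested. Leaving out 1 liver gave from 2 to 4 members for casein restriction, from 1 to 4 and from 0 to 1 for soy restriction against Soy-20% + SAA and Soy-20%, from 0 to 3 for sulfur amino acid addition, from 0 to 2 for Cas-20% against Soy-20% + SAA, from 0 to 0 against Soy-20%, from 1 to 5 for Cas-5% against Soy-10%, from 2 to 4 and from 0 to 1 for the differences of effects. The test over 5 diets was not repeated with 1 liver left out.

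Over all genes, calls for Soy-10% against Soy-20% + SAA went from 2035 to 378 with the GC slope, 317 without libraries 3 to 6 and 3077 in the fit of 30 livers. Those for sulfur amino acid addition went from 1 to 873 by DESeq2 and 1793 in the fit of 30, and those for Cas-20% against Soy-20% + SAA from 291 to 1130 and 2331, to 141 with the block, to 5 with the GC slope and to 3 without libraries 3 to 6. For Soy-10% against Soy-20% they went from 103 to 216 by DESeq2 and 62 in the fit of 30, and for Cas-20% against Soy-20% from 319 to 608 and to 190 with the block. For the differences of effects, 1089 became 613 with the GC slope and 296 without libraries 3 to 6, and 746 became 493 in the fit of 30. Any difference over 5 diets went from 5450 to 3535 and 3433.

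Replicate numbers were shared between diets but no label says that they mark a litter, day or batch. Of 60 pairs of same-numbered livers, 10 had deviations correlated over 0.1 (range -0.16 to 0.22), and 28 of 120 matches were best with the own number. These numbers were not tested against chance, so a factor shared by same-numbered livers remains possible. The main fits treated the livers as unpaired. Under the replicate block casein restriction gave 2 members in place of 3, without *Mdh2* (-0.22, adjusted p = 0.068), and the difference of effects with Soy-20% gained *Fh1* (-0.36, adjusted p = 0.041). A member that did not pass is not shown to be unchanged.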
